A study of Mus musculus with 6 samples.

Results

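Creatine kinases move a phosphate group between ATP and creatine, so that phosphocreatine can buffer ATP and carry its energy from mitochondria to the places where it is used. The 7 genes described here cover this system: the cytosolic kinases *Ckb* (brain type) and *Ckm* (muscle type), the mitochondrial kinases *Ckmt1* (ubiquitous) and *Ckmt2* (sarcomeric), the creatine transporter *Slc6a8*, and the enzymes that make creatine, *Gatm* (from arginine and glycine) and *Gamt* (by methylation of the product of *Gatm*). *Ckb* is known in osteoclasts as an energy buffer near the proton pumps that acidify the resorption space. The genes were chosen by symbol, with the high level of *Ckb* in these osteoclasts as the reason, so that level is given as a description. Of the 7 genes, 6 were among the 22601 genes of the deposited count table. No row carried the symbol *Ckmt2*, which was not analysed here.

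The libraries came from 3 WT and 3 *Slc37a2* KO mice, 1 animal number per library. The KO carries the tm2a gene-trap allele of *Slc37a2*, a sugar transporter of secretory lysosomes, on the C57BL/6N background. It is a germline allele, present in all cells of the animal. According to the sample labels, macrophages from bone marrow were turned into osteoclasts in culture over 5 days in both genotypes. RANKL was given at 10 ng/ml and M-CSF at 2 ng/ml. The results section of the study also places its RNAseq in osteoclasts, whereas its RNAseq methods describe RNA from whole femurs and tibias. The column headings of the table give an age of 11 weeks and the letter F, read here as female, for every animal. Libraries are named by animal number, and values are listed in the order K090, L080, L082 for WT and K089, L078, L081 for *Slc37a2* KO.

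Each library held between 27552183 and 42522292 counts. The targeted gene, *Slc37a2*, was at 2149 ± 292 CPM in the WT libraries (CPM, counts relative to library size with edgeR's TMM scaling; SD, n = 3) and at 38.1 ± 6.66 in those of *Slc37a2* KO (SD, n = 3), a log2 fold change of −5.82 (adjusted p = 7.07e-04 in edgeR). The 14 osteoclast markers examined summed to between 43104 and 75167 CPM before TMM scaling, the scale of all marker sums given here. Of 6 red cell markers, 1 had a row, at no more than 0.0674 CPM in any library. Osteoblast and osteocyte markers summed to between 525 and 1666 CPM and stromal markers to between 144 and 403.8 CPM, in both cases highest in L078. There the collagen gene *Col1a1* was at 862 CPM, against 295 to 762 CPM in the other libraries (TMM-scaled). The part of these cell types in the members' levels was not tested. Macrophage markers differed widely within each genotype, with sums of 3317 to 7296 CPM in WT and 3067 to 6785 CPM in *Slc37a2* KO libraries. WT library K090 and *Slc37a2* KO library L078 had the highest macrophage and the lowest osteoclast sums of their genotype, and the genotype estimates, shares, ranges and *Acp5* ratios of members are also given without them.

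*Ckb* was the main creatine kinase transcript in every library. Its TMM-scaled level was 4645, 6092 and 7572 CPM in the WT libraries. It was 11138, 5230 and 10292 CPM in the *Slc37a2* KO libraries. K089 and L081 lay above all WT libraries, while L078 lay below L080 and L082, so the genotypes overlapped. By the mean over the 6 libraries, 7495 CPM, *Ckb* ranked 4 among the tested genes, after *Mmp9*, *Acp5* and *Ctsk*, which encode the secreted proteases MMP9 and cathepsin K and the phosphatase TRAP. The genes next below it were *Ftl1* (6292 CPM), the ferritin light chain, and *Vim* (6145 CPM), the intermediate filament vimentin. Within single libraries its rank by counts ran from 4 to 8, and 0.483% to 1.04% of all counts fell on this 1 gene. That is 1 count in 207 in K090 and 1 in 96.5 in K089.

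*Ckb* lies on the minus strand of chromosome 12 at chr12:111669361-111672338 (GRCm38, GENCODE M21), with no annotated overlapping gene. Its promoter in RefSeq GRCm38.p6 is shown because this gene carries nearly all the creatine kinase counts, and that of *Gatm* because its level ran opposite to *Ckb* across the libraries. The 100 bases before each start site annotated in RefSeq are printed 5′ to 3′ on the strand of the gene (chr12:111672339-111672438 and chr2:122611278-122611377, both minus). For *Gatm* the stretch overlaps the GENCODE M21 span of the gene, chr2:122594467-122611303, so its distances hold for the RefSeq start. Capitals mark TATAAA and CCAAT, searched on both strands.
Ckb: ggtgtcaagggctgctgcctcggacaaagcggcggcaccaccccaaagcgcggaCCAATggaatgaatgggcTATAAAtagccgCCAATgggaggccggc
Gatm: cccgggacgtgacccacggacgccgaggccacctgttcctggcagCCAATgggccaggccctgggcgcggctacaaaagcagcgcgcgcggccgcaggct
In *Ckb* the TATAAA begins 28 bases before the start site, between CCAAT matches at 46 and 16 bases before it. *Gatm* has a CCAAT match that begins at 55 bases before its start and a further one, outside the printed stretch, at 190. Of 32851 RefSeq promoters of 300 bases (250 before to 50 after the start), 13.6% hold TATAAA and 37.4% hold CCAAT. In the same window *Ckb* and *Gatm* held no match to the GC box GGGCGG (35.7% of promoters), the E-box CACGTG (7.15%), the AP-1 motif TGANTCA (7.81%) or the PU.1 core GAGGAA (28.3%). *Gamt* held 4 GC boxes and no TATAAA. Of the 2 promoters of *Ckmt1*, 1 held TATAAA, 31 bases before its start, and 1 PU.1 core. The other held 1 CCAAT. *Ckmt2* held 2 CCAAT and 1 GC box, and *Ckm* held none of these motifs. TATAAA was thus not particular to the abundant *Ckb*. These matches describe the letters of the window and were chosen for display after the values were seen.

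**Figure D1:**
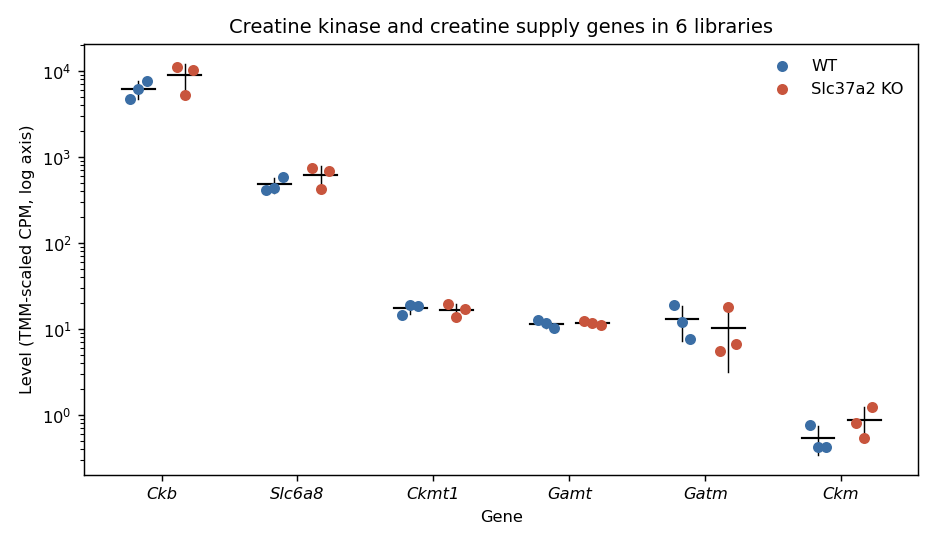
Levels of the 6 listed genes (TMM-scaled CPM, log axis) in the 3 WT (blue) and 3 Slc37a2 KO (red) libraries; each point is 1 library, the horizontal line the mean and the vertical line 1 SD to either side. Ckb sits between 4645 and 11138 CPM, Slc6a8 between 411 and 731 CPM, and the other genes below 20 CPM, with overlapping genotypes for all 6.

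The other creatine kinases were present at far lower levels. *Ckmt1*, whose product sits between the mitochondrial membranes and charges creatine with ATP made there, was at 14.6, 18.9 and 18.3 CPM in the WT libraries. It was at 19.3, 13.6 and 17.1 CPM in the *Slc37a2* KO libraries. It lies at chr2:121357714-121363737 on the plus strand (GRCm38, GENCODE M21) and shares 10 exon bases with *Strc* on the other strand. The lowest library of each genotype was again K090 and L078, and the genotypes overlapped over most of their range. *Ckm*, the kinase that buffers ATP in skeletal and heart muscle, had 31, 12 and 13 counts in WT and 22, 24 and 35 counts in *Slc37a2* KO libraries, or 0.417 to 1.24 CPM. *Ckm* at chr7:19404776-19422841 (plus strand) shares 451 exon bases with an antisense gene, *A930016O22Rik*, which had 1 or 2 counts per library. Strandedness of the libraries was not given in the sources used here. Muscle markers, with *Ckm* and *Ckmt2* left out, summed to between 5.67 and 8.68 CPM before TMM scaling. Of 15 such markers, 11 had a row, and *Myh7*, *Tnnc2* and *Actc1*, which encode heart or muscle fibre proteins, had at most 1 count in any library. *Tnni2*, a troponin subunit of fast muscle, had 74 to 165 counts, and *Acta1*, skeletal muscle actin, 16 to 130. Whether muscle RNA has a part in the *Ckm* level was not tested.

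The kinases are products of related genes, so the likeness of their coding sequences bears on how reads are assigned to them. Printed 5′ to 3′ are 45 coding bases around the codon of the catalytic cysteine, read from GENCODE M21 transcripts, to show how far the bases at the active site differ between family members. Capitals mark the 7 codons from that cysteine on.
Ckb: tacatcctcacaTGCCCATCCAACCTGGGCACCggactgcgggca
Ckm: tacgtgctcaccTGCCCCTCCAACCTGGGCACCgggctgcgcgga
Ckmt1: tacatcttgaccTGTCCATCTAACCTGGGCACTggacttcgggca
Ckmt2: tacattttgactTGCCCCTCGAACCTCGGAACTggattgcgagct
From *Ckb*, *Ckm* differs at 7 of the 45 bases, *Ckmt1* at 7 and *Ckmt2* at 12. Over the aligned coding sequences *Ckb* and *Ckm* shared 75.8% of bases, with 20 bases as the longest identical stretch. *Ckb* and *Ckmt1* shared 66.5% (longest stretch 15 bases), and *Ckmt1* and *Ckmt2* shared 71.6% (39 bases).

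Per length of transcript the order of the genes was *Ckb*, *Slc6a8*, *Gamt*, *Ckmt1*, *Gatm* and *Ckm*. On the scale of CPM per kilobase of joined exons (FPKM, before TMM scaling), *Ckb* had a mean of 2552 over the 6 libraries, and ranked 5 among the 18753 genes matched to the annotation. Its joined exons (2895 bases) include transcripts with kept introns. With the longest coding transcript (1472 bases) its level came to 5019, also at rank 5. *Ckb* was at 377 times the level of *Ckmt1* and 10786 times that of *Ckm* per length. The lowest *Ckb* library (1669) lay far above the highest *Slc6a8* library (131), and the lowest *Slc6a8* library (82.0) above every library of *Gamt*. *Gamt* (6.99 to 8.998), *Ckmt1* (5.77 to 7.79) and *Gatm* (1.68 to 6.55) overlapped with their neighbours in this order. *Ckm* was at most at 0.405.

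*Ckb* accounted for 99.66% ± 0.0510 of the creatine kinase counts per kilobase in WT and 99.76% ± 0.0604 in *Slc37a2* KO libraries (SD, n = 3 each). The difference was 0.102 percentage points (exact permutation test, two-sided, p = 0.2, where 0.1 is the smallest p that 3 libraries against 3 allow). For a sense of scale, *Ckb* was at 14.0 times the per-length level of *Nme2*, the most abundant nucleoside diphosphate kinase, an enzyme of another phosphate transfer route.

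**Figure D2:**
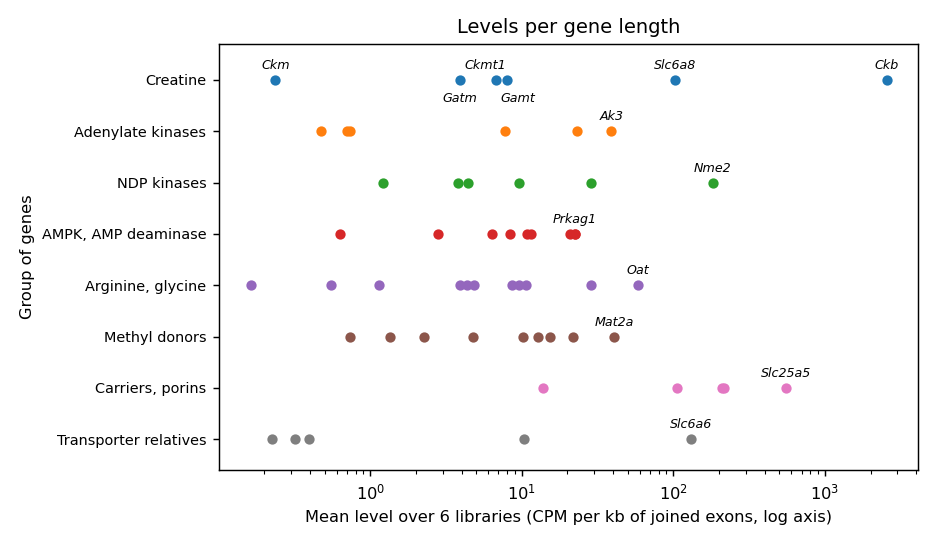
Mean level over the 6 libraries (CPM per kilobase of joined exons, log axis) of the genes of each group, 1 point per gene; the highest gene shown of each group and the creatine genes are named. Ckb, at 2552, lies to the right of every gene of the other groups shown, of which Slc25a5 is the highest at 557.

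Among the genes that supply creatine, the transporter was far more abundant than the enzymes. *Slc6a8*, which imports creatine with sodium and chloride, was at 411, 428 and 585 CPM in the WT libraries. It was at 731, 424 and 679 CPM in the *Slc37a2* KO libraries. Its gene lies on the plus strand at chrX:73673150-73682502 (GRCm38), with no annotated overlapping gene. As for *Ckb*, the highest values were those of K089 and L081, and L078 lay among the WT libraries. Per length it was at 26.5 times the level of *Gatm* and 12.9 times that of *Gamt*. The share of *Slc6a8* among the counts per kilobase of *Slc6a8*, *Gatm* and *Gamt* was 87.8% ± 4.07 in WT and 90.5% ± 4.48 in *Slc37a2* KO libraries (SD, n = 3), a difference of 2.70 percentage points (exact permutation test, two-sided, p = 0.5). Single libraries moved this difference, to 0.832 points without K090, 1.35 without K089, 1.46 without L081, 4.87 without L082 and 5.28 without L078. It was 3.42 points without both K090 and L078, and 1.29 on raw counts not divided by length. The *Ckb* share differed by 0.119 points without both.

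*Gatm*, on the minus strand at chr2:122594467-122611303 (GRCm38), encodes the mitochondrial amidinotransferase that makes guanidinoacetate. It was at 18.9, 12.01 and 7.61 CPM in the WT libraries. It was at 5.43, 18.1 and 6.68 CPM in the *Slc37a2* KO libraries. The high libraries were K090 and L078, those lowest in *Ckb*, and the range within a genotype exceeded the distance between the means. *Gamt*, the methyltransferase that finishes creatine synthesis (minus strand, chr10:80258151-80261012), was at 12.5, 11.7 and 10.2 CPM in WT and 12.2, 11.6 and 11.03 CPM in *Slc37a2* KO libraries. The 6 libraries of *Gamt* lay within a 1.23-fold range, near the median of 1.23-fold over 8692 genes with a mean of at least 10 CPM. *Gatm*, with a 3.48-fold range, varied more than 98.1% of those genes. *Ckb* (2.40-fold) varied more than 95.3%, *Slc6a8* (1.78-fold) more than 89.9% and *Ckmt1* (1.42-fold) more than 77.8%. Over the 4 libraries other than K090 and L078, the ranges were 1.83-fold for *Ckb*, 1.71-fold for *Slc6a8*, 2.21-fold for *Gatm*, 1.13-fold for *Ckmt1* and 1.201-fold for *Gamt*.

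Between genotypes, none of the members passed the test. An adjusted p below 0.05 was reached by 0 of the 6, against 1 gene (*Slc37a2*, 0.00742%) of the 13483 tested. Of the 6, 0 had an unadjusted p below 0.05 (0.712% of all tested genes) and 0 had genotypes that did not overlap (4.31% of all tested genes). All 6 listed members passed the filter on low counts. Estimates were above 0 for 4 members and below 0 for 2, with a median log2 fold change of 0.19 against −0.02 over all tested genes. Every adjusted p in edgeR is from its quasi-likelihood fit, adjusted by Benjamini-Hochberg over all tested genes.

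For *Ckb* the means were 6103 ± 1463 CPM in WT and 8887 ± 3195 CPM in *Slc37a2* KO libraries (SD, n = 3). The log2 fold change of 0.54 had a standard error of 0.33 and a 95% confidence interval of −0.26 to 1.35 (adjusted p = 0.969 in edgeR). *Slc6a8* had means of 475 ± 95.7 and 611 ± 164 CPM and a log2 fold change of 0.37 (standard error 0.24, interval −0.21 to 0.94, adjusted p = 0.969 in edgeR). *Gatm* had means of 12.8 ± 5.70 and 10.1 ± 6.96 CPM and an estimate of −0.35 (interval −1.64 to 0.95). The intervals of these genes leave room for changes in either direction. They were narrower for *Gamt*, at 0.02 (interval −0.26 to 0.30), and *Ckmt1*, at −0.05 (interval −0.45 to 0.35). The estimate for *Ckm* was 0.65 (interval −0.38 to 1.67), at 12 to 35 counts per library.

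These estimates moved when single libraries were left out. Without *Slc37a2* KO library L078, the log2 fold changes were 0.81 for *Ckb*, 0.57 for *Slc6a8* and −1.09 for *Gatm*. In that fit these 3 members had an unadjusted p below 0.05, as had 20.1% of all genes tested in it, and the lowest adjusted p was 0.227 in edgeR. Without *Slc37a2* KO library K089, *Ckb* was at 0.37 and *Slc6a8* at 0.24. Without WT library K090, *Gatm* was at 0.05, above 0. With both K090 and L078 left out, a choice made after seeing the data, *Ckb* was at 0.65, *Slc6a8* at 0.48 and *Gatm* at −0.69. In the same fit *Ckm* was at 1.27, *Ckmt1* at −0.03 and *Gamt* at 0.09. There, 4 members had an unadjusted p below 0.05, beside 15.8% of all genes tested in that fit (lowest adjusted p = 0.192 in edgeR). The number of members past the adjusted threshold was 0 in each of these fits.

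**Figure D3:**
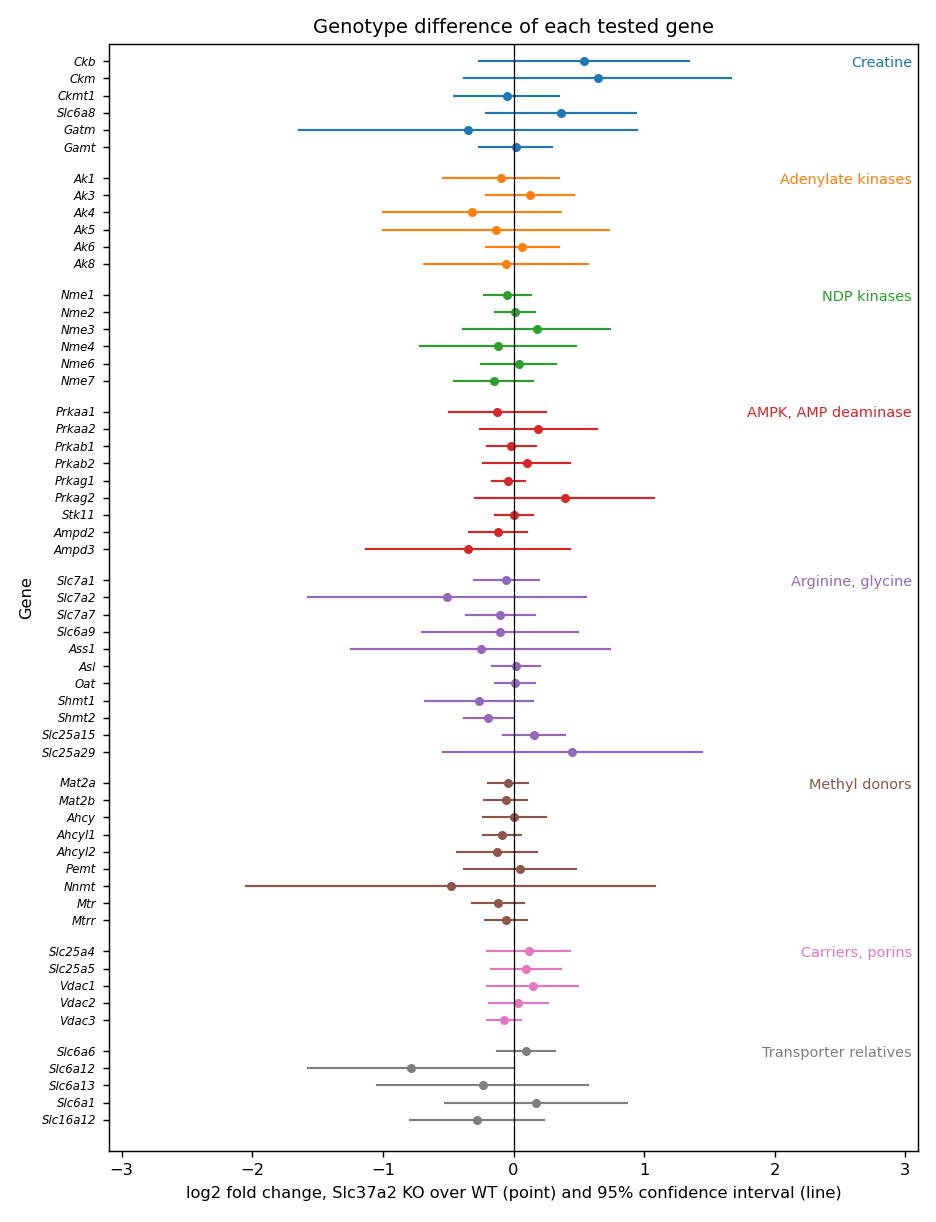
Estimated log2 difference between Slc37a2 KO and WT (points) with its 95% confidence interval (lines) for the tested genes of the creatine group and the neighbouring pathways, coloured by group. All 6 creatine genes have intervals that include 0, and Gatm and Ckm have the widest intervals among them.

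Across the 6 libraries *Ckb*, *Slc6a8* and, in reverse, *Gatm* followed an order that was not that of genotype. From low to high *Ckb* the order was K090, L078, L080, L082, L081 and K089. *Slc6a8* had the same order and *Gatm* the exact reverse, while *Ckmt1*, *Gamt* and *Ckm* had neither. The order of *Ckb* was shared by 264 of the tested genes (1.96%) and reversed in 417 (3.09%). Among 14 osteoclast markers 6 had the order of *Ckb* (*Acp5*, *Ctsk*, *Mmp9*, *Oscar*, *Itgb3* and *Tcirg1*) and 0 the reverse. Among 10 macrophage markers 0 had it and 2 (*Mrc1* and *Fcgr1*) had the reverse.

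The summed osteoclast markers ran from 43104 CPM (K090) through 47717 (L078), 55727 (L080), 61359 (L082) and 68817 (L081) to 75167 (K089), which is the order of *Ckb*. The macrophage sums were 7296, 6785, 6341, 3317, 3459 and 3067 CPM in the same order of libraries, and the interferon response genes summed to 224, 143, 120, 31.8, 42.0 and 20.8 CPM. The 10 proliferation genes summed to 1287, 1256, 919, 896, 720 and 570 CPM, the exact reverse of the order of *Ckb*, and 4 of them (*Cdk1*, *Birc5*, *Mcm5* and *Pcna*) had that reverse order singly. Summed in this way, libraries low in *Ckb* were also low in osteoclast markers and high in macrophage, interferon and proliferation genes. The most abundant genes weigh most in a sum, and *Lyz2* made up 4459 of the 7296 CPM of macrophage markers in K090. Of the 43104 CPM of osteoclast markers in that library, *Mmp9* made up 17841, *Acp5* 9795 and *Ctsk* 8220 CPM (before TMM scaling). These genes have the order of *Ckb* singly, so the order of the osteoclast sum largely repeats theirs. Single markers could differ. *Csf1r*, of the macrophage list, was lowest in L078 (1724 CPM) and highest in K089 (2096 CPM, both TMM-scaled). *Calcr* and *Car2*, of the osteoclast list, were lowest in L082 (88.8 and 253 CPM, TMM-scaled). Between genotypes, estimates were above 0 for all 14 osteoclast markers (median log2 fold change 0.28) and for 43.8% of all tested genes. They were below 0 for 8 of 10 macrophage markers (median −0.47), 12 of 12 interferon genes (−0.88) and 10 of 10 proliferation genes (−0.24), and 0 genes of these lists were called. In bulk RNA, fewer cells of a type and less RNA of a gene per cell cannot be told apart, and the part of cell composition in the levels of *Ckb*, *Slc6a8* and *Gatm* was not tested.

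Set against *Acp5*, which encodes the osteoclast enzyme TRAP, *Ckb* varied less. The ratio of their counts was 0.493, 0.504 and 0.548 in WT, against 0.609, 0.512 and 0.610 in *Slc37a2* KO, a 1.24-fold range. The log2 ratio differed between genotypes by 0.16 (exact permutation test, two-sided, p = 0.2). The ratio of *Slc6a8* to *Acp5* had a 1.23-fold range, and its log2 differed between genotypes by 0.01 (exact permutation test, p = 1.0). *Gatm* to *Acp5* ranged 6.77-fold, with a log2 difference of −0.80 (exact permutation test, p = 0.4). Without K090 and L078 these ranges were 1.21-fold, 1.196-fold and 3.35-fold, and the log2 differences 0.21, 0.05 and −1.11. These ratios were added after seeing the data. *Acp5* has the library order of *Ckb* and *Slc6a8* and the reverse of that of *Gatm*. That choice favours a narrower range for *Ckb* and *Slc6a8* and a wider one for *Gatm*, so the ranges are given as a description. There were 11.3 to 15.2 counts of *Ckb* per count of *Slc6a8*, with the lowest value in K090 and the highest in K089.

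**Figure D4:**
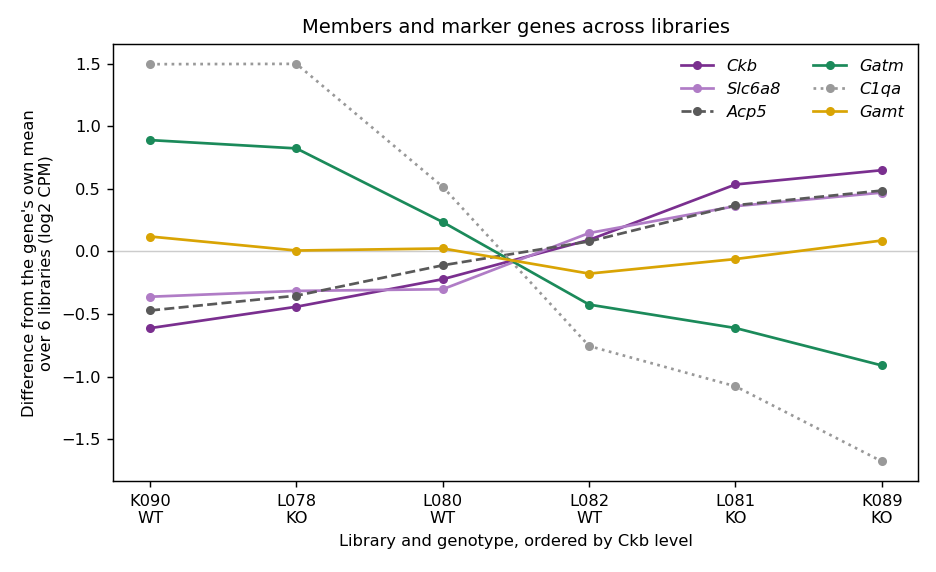
Level of Ckb, Slc6a8, Gatm and Gamt, with the osteoclast marker Acp5 and the macrophage marker C1qa, as the difference from the gene's own mean over the 6 libraries (log2 of TMM-scaled CPM); libraries are ordered by Ckb and labelled by genotype. Ckb, Slc6a8 and Acp5 are lowest in K090 and highest in K089, Gatm is highest in K090 and lowest in K089, and WT and KO libraries are interleaved along the axis.

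The genes closest to each member across the 6 libraries were named by Pearson's r of log2 CPM, over up to 8692 genes with a mean of at least 10 CPM. With 6 libraries, many genes can reach high values of r. The libraries also differed in depth and in marker sums, so r is given as a description. For *Ckb* they were *Tcirg1* (r = 0.998), the a3 subunit of the osteoclast proton pump, *Tbc1d4* (0.997), a Rab GTPase-activating protein of glucose transport, and *Spp1* (0.997), osteopontin. For *Slc6a8* they were *Fignl2*, *Blcap* and *Ndufa10*, a complex I subunit (r = 0.998 to 0.999). *Gatm* was closest to *C1qa* (r = 0.999), a complement chain made by macrophages, and to *Mdc1* and *Tmem131l*. *C1qa* was at 174, 88.1 and 36.5 CPM in WT, against 19.3, 174 and 29.2 CPM in *Slc37a2* KO. The low-abundance members were closest to genes outside these groups: *Ckmt1* to *Spty2d1*, *C330018D20Rik* and *Nudt7*, *Gamt* to *Ankhd1*, *Alas1* and *Ugp2*, and *Ckm* to *Csgalnact2*, *Ccdc9* and *Eif3f*.

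Around the creatine system, other phosphate transfer enzymes showed no called genes. Most adenylate kinases turn 2 ADP into ATP and AMP, which is not the reaction of *Ak3*. Of this family 8 genes were examined, of which 6 were tested and 0 called, with a median log2 fold change of −0.08. *Ak3*, in the mitochondrial matrix, was at 117 ± 9.69 CPM in WT and 128 ± 22.1 CPM in *Slc37a2* KO libraries (SD, n = 3), with an estimate of 0.13. *Ak1*, in the cytosol, had an estimate of −0.10, and the largest of these 6 was −0.32 for *Ak4*. Nucleoside diphosphate kinases, which pass phosphate between nucleotides, had 7 listed and 6 tested, with 0 called and a median of −0.02. *Nme2* was at 212 ± 5.76 and 214 ± 10.8 CPM (SD, n = 3), and *Nme1* had an estimate of −0.05. The largest estimate was 0.18 for *Nme3*.

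AMP-activated protein kinase, which senses AMP, was examined together with AMP deaminases, with 11 genes listed, 9 tested and 0 called. *Prkag2*, its gamma-2 subunit, had the order of *Ckb* over the 6 libraries, with 127 ± 30.6 CPM in WT and 166 ± 53.9 CPM in *Slc37a2* KO libraries and the group's largest estimate, 0.39 (interval −0.29 to 1.08). *Prkaa1*, its catalytic alpha-1 subunit, had the reverse order. *Stk11*, the kinase that activates it, was at 94.99 ± 5.43 and 95.2 ± 0.854 CPM. Adenine nucleotide carriers and porins, through which ATP leaves mitochondria and ADP enters, had 6 listed and 5 tested, with 0 called and a median of 0.10. *Slc25a5* was at 889 ± 15.4 and 951 ± 120 CPM, and *Vdac1* had the group's largest estimate, 0.15.

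Genes that supply the substrates of creatine synthesis were measured as well. Arginine and glycine supply had 13 listed and 11 tested, with 0 called and a median of −0.10. *Oat*, ornithine aminotransferase, was at 137 ± 3.24 and 138 ± 7.81 CPM, and *Slc7a1*, an arginine importer, at 126 ± 7.40 and 122 ± 15.1 CPM. *Slc7a2*, a related importer, had the largest estimate (−0.51, interval −1.57 to 0.55) and the order of *Gatm*, as had *Shmt1*. *Shmt2*, the serine hydroxymethyltransferase of mitochondria, was the single gene of the pathway lists with an unadjusted p below 0.05 in edgeR. It was also the only one with genotypes that did not overlap. Over all tested genes these shares were 0.712% and 4.31%. *Shmt2* was at 92.5 to 94.7 CPM in WT and 76.4 to 90.9 CPM in *Slc37a2* KO libraries (estimate −0.19, adjusted p = 0.969 in edgeR). It was named after its values were seen. The list for homocysteine clearance and supply of the methyl donor that *Gamt* uses had 13 genes named, 11 listed and 9 tested. Of these 0 were called, with a median of −0.06. Not all of its genes supply the donor, and *Nnmt* is a methyltransferase that uses it. *Mat2a*, which makes S-adenosylmethionine, was at 186 ± 6.40 and 180 ± 8.29 CPM. *Ahcyl1* had an estimate of −0.09, and the largest was −0.48 for *Nnmt*, at 0.294 to 1.77 CPM.

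Relatives of the creatine transporter, with the creatine exporter *Slc16a12*, had 6 genes named, 5 listed and 5 tested, with 0 called. *Slc6a6*, the taurine transporter, was at 1071 ± 77.2 CPM in WT and 1144 ± 57.5 CPM in *Slc37a2* KO libraries, above *Slc6a8*, and per length the levels were 131 and 103 FPKM. *Slc6a12*, the betaine transporter, was at 48.5, 45.0 and 24.5 CPM in WT, against 15.4, 29.7 and 23.2 CPM in *Slc37a2* KO. The 2 highest libraries were WT, and the genotypes overlapped at L082 and L078. Its log2 fold change of −0.79 (interval −1.58 to 0.0027) had an adjusted p of 0.969 in edgeR.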

How the data were processed

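The authors deposited whole-number counts of reads per gene, not normalized, for 22601 genes and 6 libraries. The labels name the build mm10, bcl2fastq 2.20.0.422 and edgeR 3.30.3. For the aligner, the counter and the annotation, the sources used here give nothing. The authors' own comparison columns (fold change, mean level, likelihood ratio, p, FDR) were not used. Every listed gene had at least 1 count in all.

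Counts were filtered with filterByExpr, scaled by TMM (factors 0.931 to 1.06) and fitted by glmQLFit and glmQLFTest in edgeR 4.0.16 (R 4.3.3), by genotype alone; p-values were adjusted by Benjamini-Hochberg over 13483 genes (threshold 0.05). The biological coefficient of variation was 20.8%. The code was tested on simulated data. Shares and ratios were compared by exact permutation tests in scipy 1.17.1. Lengths came from GENCODE M21, matched by symbol for 83.0% of genes with 98.7% of counts. The log2 CPM for likeness used a prior count of 2. Values recomputed with other scalings, filters, tests and libraries left out are in the closing section.

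Named were *Slc37a2*, the members, their 3 closest genes, the genes next to *Ckb* in level, and of each pathway list the 2 most abundant genes and the 1 with the largest estimate. *Prkaa1*, *Shmt1*, *Shmt2*, *Col1a1* and other single markers were named after their values were seen. A gene of the pathway lists is not reported here. Members and lists were chosen with earlier results of these data known. Libraries carry separate animal numbers, and p-values measure the spread between them.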

Additional observations from a re-analysis of the deposited data

How the results depend on the processing

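No member was called under any alternative, and 0 had an unadjusted p below 0.05 except without *Slc37a2* KO L078 (3: *Ckb*, *Slc6a8* and *Gatm*, beside 20.1% of all genes tested in that fit) and without both K090 and L078 (4, with *Ckm*, beside 15.8%). The number of genes called was 1 (*Slc37a2*), and 2 (*Slc37a2* and *En2*, the latter named after its values were seen) with no filter on low counts, under edgeR's likelihood ratio test and under DESeq2's Wald test. It stayed at 1 with each library left out. Under upper quartile scaling, DESeq2's size factors, other filters and other tests, estimates ran from 0.53 to 0.56 for *Ckb* and from 0.36 to 0.38 for *Slc6a8*, and no member changed sign. *Ckm* was not tested at a minimum of 1 CPM in 3 libraries. With single libraries left out, 3 members reversed: *Gatm* to 0.045 (without WT K090), *Gamt* to −0.035 (without WT L082), and *Ckmt1* to 0.021 (without WT L080), 0.018 (without WT L082) and 0.078 (without *Slc37a2* KO L078). Their ranges were −1.09 to 0.045, −0.035 to 0.086 and −0.16 to 0.078, beside 0.37 to 0.81 for *Ckb*, 0.24 to 0.57 for *Slc6a8* and 0.31 to 1.01 for *Ckm*. The cause was not tested. The differences in share kept their sign, from 0.0838 to 0.137 points for *Ckb* and from 0.832 to 5.28 points for *Slc6a8* with single libraries left out. The letter of the animal number as a second term, the removal of K090 with L078 and the length of the longest coding transcript were added after seeing the data. No paired analysis was possible because the columns of the count table carry animal numbers and no replicate numbers.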
